A study of Rattus norvegicus with 4 samples.

Results

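The subject is the messenger RNA of the proteasome, its subunits, assembly factors and activators, in insulin-secreting rat cells grown in a bioprinted hydrogel or in monolayer. Its genes were found by symbol, as those that start with Psm, a letter from a to g and a digit, together with Pomp. Of 23360 gene symbols, 51 fitted, and 49 of these had a mean of at least 1 TPM (an abundance scaled to sum to 1000000 in each sample and corrected for transcript length) and were tested among 11960 genes. The remaining ones, Psmb8 and Psmb11, lay below that level. All samples were INS-1 832/3 cells, an established rat insulinoma line, harvested after 5 days in culture at passage 3 and grown in the same serum-containing medium with Geneticin and 2-mercaptoethanol. The monolayer group (2D) was a standard culture without matrix, and the 3D group was printed in the hydrogel GelXA LAMININK 411. Each group held 2 samples, given in the labels as biological replicates. The matrix, the printing and the cell arrangement differed between the groups together, so their parts cannot be told apart.

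The proteasome is the barrel-shaped protease that degrades proteins tagged with ubiquitin. Its core particle stacks rings of alpha subunits, which form the gate, and rings of beta subunits, which carry the catalytic sites. A regulatory particle made of a base with ATPases and a lid binds the tagged protein, removes the ubiquitin and unfolds the chain into the core. Dedicated chaperones assemble the rings, and alternative caps can replace the regulatory particle. Insulin-secreting cells fold large amounts of prohormone and depend on the proteasome to clear misfolded chains.

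Transcripts of the proteasome were lower in 3D culture across nearly the whole complex. Of the 49 genes, 40 fell at an adjusted p below 0.05 in limma, against a background of 19.5% of all genes tested. One gene, Psma8, rose, against a background of 18.5%, and 8 did not pass. The median log2 fold change was -0.34, which corresponds to 78.9% of the monolayer level, and the median over all genes tested was -0.0035. In 44 of the 49 genes both 3D samples lay below both monolayer samples, a separation found in 33.2% of all genes tested. In 1 gene, Psma8, both lay above, which held for 41.1% of all genes. The summed TPM of the 49 genes was 7286 and 7317 in monolayer, against 5739 and 5876 in 3D culture. The groups did not overlap, and the gap between them was far wider than the distance between replicates of a group.

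Proteasome genes are abundant, and abundant genes as a class were lower more often in 3D culture. Among 1201 genes with a mean of at least 100 TPM, 481 fell and 141 rose, with a median log2 fold change of -0.17. The cumulative plot of changes sets the proteasome genes beside that class. At a log2 fold change of -0.2, 85.7% of the proteasome genes lay at or below the value, compared with 44.2% of the abundant genes and 26.2% of all genes.

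**Figure D1:**
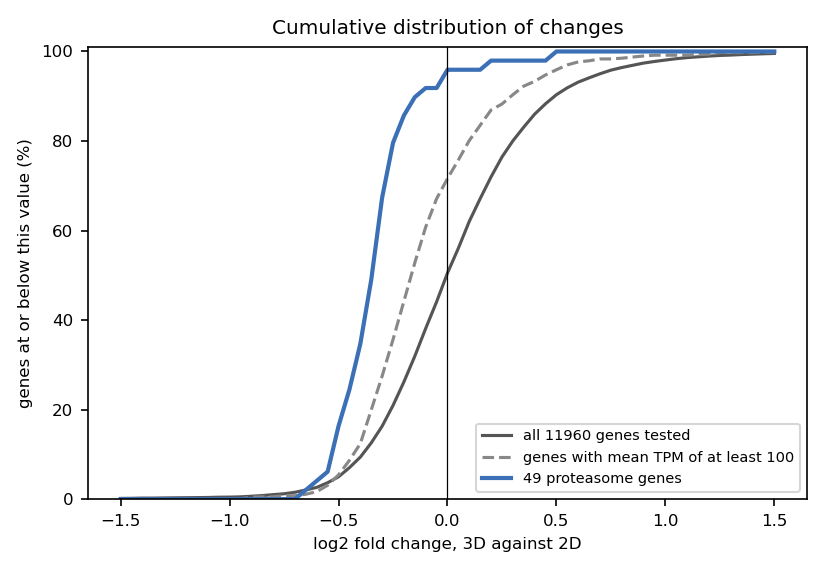
Cumulative share of genes (vertical axis, percent) at or below each log2 fold change of 3D against monolayer culture (horizontal axis), for all genes tested, for genes with a mean of at least 100 TPM and for the 49 proteasome genes. The proteasome curve lies left of both others over most of the range, with 95.9% of its genes at or below 0.

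The replicates behind these values were close. Between the monolayer replicates the median absolute difference over the 49 genes was 0.07 on the log2 scale, and between the 3D replicates it was 0.06, compared with 0.10 and 0.07 over all genes tested. Both are several times smaller than the median change. For 1 gene, the smallest two-sided p of an exact permutation test is 0.333 in this design of 2 against 2, and the calls depend on limma's pooling of the spread over genes. With 3D replicate 1 left out, 0 of the 49 genes passed in limma, and 24 of all 11960 genes were called lower. At an unadjusted p below 0.05, 37 of the 49 genes (75.5%) and 16.1% of all genes were then lower. With 3D replicate 2 left out, 7 of the 49 and 245 of all genes were called lower, and 38 of the 49 (77.6%) and 18.1% of all genes were lower at an unadjusted p below 0.05. Without monolayer replicate 1 or 2, the median log2 fold change of the 49 genes was -0.39 and -0.31. The median log2 fold change of the 49 genes lay between -0.39 and -0.31 whichever sample was left out. In bulk RNA, fewer cells of a type and less RNA per cell cannot be told apart.

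The samples carried the markers of their label. All 7 beta cell markers were present, with Ins1, an insulin gene of the rat, at 114000 to 137820 TPM. Of these markers, Ins2, the other insulin gene, fell by 0.58 and Slc2a2, a glucose transporter, rose by 0.39 on the log2 scale (adjusted p = 0.0095 and 0.0075 in limma), and the other 5 did not pass. Their part in the results was not tested. The fibroblast genes Col1a1 and Col3a1 were at or near 0 TPM, and the leukocyte gene Ptprc and the endothelial gene Cdh5 were listed at 0 in all samples. The markers found of fibroblasts (3 of 4) summed to 1.89 to 2.35 TPM per sample, those of endothelial cells (2 of 3) to 0.965 to 1.48 TPM, and those of leukocytes (4 of 4) to 0.516 to 1.55 TPM, with the higher sums of each list in 3D culture. From 19355 to 19959 transcripts had a value above 0, and the 10 most abundant took 23.4% to 26.9% of TPM, with the higher shares in 3D culture. Because TPM sum to 1000000 in each sample, such a gain in a few transcripts lowers all others in proportion. The part of this in the result was not tested beyond the scaling between samples. Without that scaling, which leaves any such effect in place, 38 of the 49 genes and 15.2% of all genes fell in limma. The median log2 fold change was then 0.036 over all genes and -0.30 over the 49 genes.

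Promoters of 3 genes that fell and of 1 that did not pass are shown here, from a RefSeq table (GRCr8 assembly) that matched 45 of the 49 genes. Psma5, Psmb5 and Psmb7 are core subunits with some of the strongest falls, and Psmf1, an inhibitor, did not pass the test. Each run gives the 250 bases before the gene start, 5′ to 3′ on the strand of the gene, at chr2:198584255-198584504 (plus strand) for Psma5, chr15:32047380-32047629 (minus strand) for Psmb5, chr3:42827471-42827720 (minus strand) for Psmb7 and chr3:160720916-160721165 (minus strand) for Psmf1. Capitals mark matches, on either strand, to the CCAAT box (CCAAT), the core of the sites of ETS factors (CGGAAG) and the core of the antioxidant response element (TGACNNNGC), the element that NRF factors bind.
Psma5: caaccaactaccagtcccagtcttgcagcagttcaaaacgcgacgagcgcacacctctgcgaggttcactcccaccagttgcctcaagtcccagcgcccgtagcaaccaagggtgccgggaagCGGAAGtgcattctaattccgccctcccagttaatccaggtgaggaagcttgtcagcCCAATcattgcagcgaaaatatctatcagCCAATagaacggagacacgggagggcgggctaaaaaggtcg
Psmb5: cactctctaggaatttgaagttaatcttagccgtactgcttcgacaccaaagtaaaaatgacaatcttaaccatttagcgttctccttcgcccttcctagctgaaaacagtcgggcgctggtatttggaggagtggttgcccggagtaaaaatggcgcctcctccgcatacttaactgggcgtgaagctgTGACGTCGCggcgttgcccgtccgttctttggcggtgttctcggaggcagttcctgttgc
Psmb7: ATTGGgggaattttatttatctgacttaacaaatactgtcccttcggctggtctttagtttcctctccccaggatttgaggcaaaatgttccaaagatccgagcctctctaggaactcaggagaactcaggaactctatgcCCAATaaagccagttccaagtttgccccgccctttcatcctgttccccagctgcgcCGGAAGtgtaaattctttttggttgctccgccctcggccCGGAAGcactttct
Psmf1: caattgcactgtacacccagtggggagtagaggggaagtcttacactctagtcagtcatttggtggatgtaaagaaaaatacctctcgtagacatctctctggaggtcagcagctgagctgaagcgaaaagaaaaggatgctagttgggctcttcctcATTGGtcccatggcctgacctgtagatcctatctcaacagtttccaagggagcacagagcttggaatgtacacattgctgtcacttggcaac

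In these runs, Psma5 held 2 CCAAT boxes and 1 ETS core, and Psmb7 held 2 of each. The run of Psmb5 held 1 antioxidant element core, and that of Psmf1 held 1 CCAAT box. Over windows from 250 bases before to 50 after the start, an ETS core was found in 55.6% of the 45 proteasome promoters, compared with 31.9% of 9833 promoters of genes tested and 39.2% of 932 promoters of genes with a mean of at least 100 TPM. Over all 33469 promoters of the table the share was 16.6%. A CCAAT box was in 48.9% of the proteasome promoters, 37.7% of those of genes tested, 40.5% of those of genes with a mean of at least 100 TPM and 37.5% of all. The antioxidant element core was in 17.8%, 15.0%, 17.1% and 12.1% of the same sets. The ETS core was in 52.8% of the 36 promoters of genes that fell and in 66.7% of the 9 others, the CCAAT box in 52.8% and 33.3%, and the antioxidant element core in 19.4% and 11.1%. These shares describe letters in a window and were not tested. No motif of the 3 contains another.

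**Figure D2:**
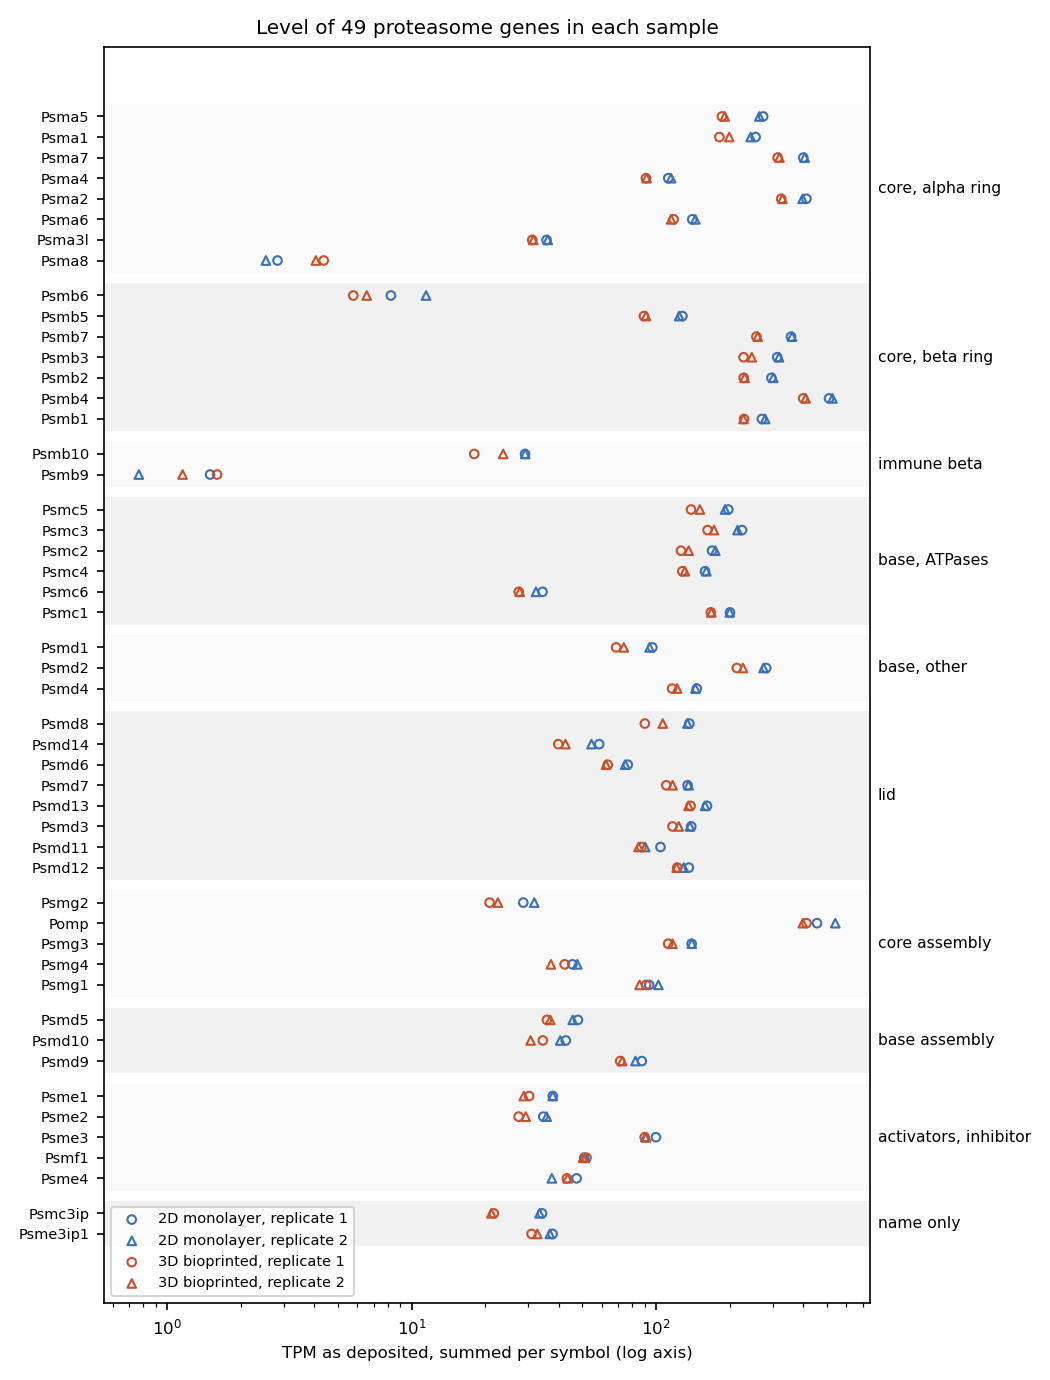
TPM as deposited (horizontal log axis) of each of the 49 proteasome genes in the 4 samples, grouped by role, with circles for replicate 1 and triangles for replicate 2, blue for monolayer and orange for 3D culture. In 44 genes both orange symbols lie left of both blue symbols, and Psma8 is the gene in which both lie to the right.

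In the core particle, all 14 constitutive subunits fell, 7 of the alpha ring and 7 of the beta ring, with a median log2 fold change of -0.41. Their summed TPM was 3512 and 3527 in monolayer and 2683 and 2747 in 3D culture, and the 3D mean was 0.771 times the monolayer mean. This sum, also the reference for Pomp and Psmf1 below, counts Psmb6 under its own symbol alone, without its more abundant near copy. In the alpha ring, which gates the entry of substrates, Psma5 stood at 274 and 264 TPM in 2D and at 186 and 191 TPM in 3D. Both 3D samples were well below both monolayer samples, and the fall of 0.56 on the log2 scale (standard error 0.05, adjusted p = 0.0041 in limma) was the largest of the ring. Psma1, Psma7, Psma4, Psma2 and Psma6 had log2 fold changes from -0.43 to -0.33. The smallest fall was that of Psma3l, an older symbol of Psma3, at 35.6 and 36.0 TPM in 2D and at 31.2 and 31.5 TPM in 3D culture. It fell by 0.23 on the log2 scale (standard error 0.06, adjusted p = 0.033 in limma), and its samples did not overlap either.

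Psma8 is the alpha subunit of the testis form of the proteasome, which takes the place of Psma7 in male germ cells. It was at 2.83 and 2.54 TPM in 2D and at 4.37 and 4.06 TPM in 3D culture. Both 3D samples were higher, and it rose by 0.47 on the log2 scale (standard error 0.10, adjusted p = 0.019 in limma). The gene remained rare beside the subunit it replaces, at 0.707% and 0.626% of the TPM of Psma7 in monolayer and 1.39% and 1.27% in 3D culture. The call was kept in 9 of 12 other settings of the processing.

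The beta ring holds the 3 catalytic subunits, and all of them fell. Psmb5, the subunit with chymotrypsin-like activity, was at 128 and 124 TPM in 2D and at 89.1 and 90.9 TPM in 3D culture. It fell by 0.53 on the log2 scale (standard error 0.05, adjusted p = 0.0042 in limma). Psmb7, with trypsin-like activity, was at 356 and 359.7 TPM in 2D and at 257 and 260.4 TPM in 3D culture, with a log2 fold change of -0.51 and a standard error of 0.06 (adjusted p = 0.0050 in limma). In both genes the replicates of a group lay close together and the groups were far apart.

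Psmb6, the catalytic subunit with caspase-like activity, had a low level under its own symbol, and a near copy of it is listed beside it. Psmb6 was at 8.23 and 11.5 TPM in 2D and at 5.78 and 6.55 TPM in 3D culture, and the copy, LOC100360846, which RefSeq lists as Psmb6l1, was at 224 and 233 TPM and at 157 and 171 TPM. On the log2 scale Psmb6 fell by 0.62 (standard error 0.17, adjusted p = 0.038 in limma) and the copy by 0.52 (standard error 0.07, adjusted p = 0.0069 in limma). The split of the reads between both symbols is uncertain, and Psmb6 on its own kept its call in 6 of 11 other settings. Summed, they were at 232 and 245 TPM in 2D and at 163 and 178 TPM in 3D, between the levels of Psmb5 and Psmb7 and without overlap between groups.

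Of the structural beta subunits, Psmb3, Psmb2, Psmb4 and Psmb1 fell by 0.46, 0.43, 0.40 and 0.31 on the log2 scale. Psmb4, the most abundant of them, was at 509.8 and 526 TPM in 2D and at 399 and 409 TPM in 3D. Psmb1 changed the least of the ring, from 271 and 279 TPM to 229 and 228 TPM (adjusted p = 0.016 in limma). No 3D sample of any constitutive beta subunit reached a monolayer sample.

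The immune subunits Psmb8, Psmb9 and Psmb10 replace the catalytic subunits in the immunoproteasome, which immune cells carry and interferon induces in other cells. Psmb8 was at 0.223 and 0.622 TPM in 2D and at 1.43 and 0.679 TPM in 3D culture, too low to be tested. Psmb9 was at 1.50 and 0.767 TPM in 2D and at 1.60 and 1.16 TPM in 3D culture, with overlapping groups, a log2 fold change of 0.15 (95% interval -0.36 to 0.66) and an adjusted p of 0.577 in limma. Psmb10 was at 29.1 and 29.2 TPM in 2D and at 18.0 and 23.7 TPM in 3D culture. Both 3D samples of Psmb10 were lower, though unequally so, and it fell by 0.52 on the log2 scale (standard error 0.12, adjusted p = 0.025 in limma), a call it lost in 4 of 13 other settings. Psmb11, the thymus subunit, stayed at or below 0.168 TPM in every sample.

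Set against the subunit that each replaces, the immune subunits remained in the minority. Psmb10 stood at 8.17% and 8.11% of the TPM of Psmb7 in monolayer and at 7.02% and 9.10% in 3D culture, so the ratios of the groups overlapped. Psmb9 stood at 0.646% and 0.313% of Psmb6 with its copy in monolayer and at 0.983% and 0.651% in 3D culture. Psmb8 stood at 0.174% and 0.501% of Psmb5 in monolayer and at 1.61% and 0.747% in 3D culture. Both 3D ratios were higher for Psmb8 and Psmb9, but each exact permutation test gave p = 0.333, two-sided, the smallest that 2 samples against 2 allow, and both genes lay near 1 TPM. Of the interferon-responsive genes examined beside them, Irf1 fell by 0.29 on the log2 scale (adjusted p = 0.038 in limma). B2m and Tap1 did not pass, at adjusted p = 0.820 and 0.940 in limma, and Tap2, Gbp2 and Isg15 lay below 1 TPM.

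The regulatory particle fell in 16 of its 17 subunits, with a median log2 fold change of -0.33. Its summed TPM was 2458 and 2404 in monolayer and 1917 and 2003 in 3D culture. All 6 ATPases of the base, the ring that unfolds substrates, fell. Psmc5 changed the most, from 197 and 191 TPM in monolayer to 139 and 151 TPM in 3D culture (log2 fold change -0.47, standard error 0.06, adjusted p = 0.0059 in limma). Psmc1 changed the least, from 201 and 200.1 TPM to 167 and 168 TPM (log2 fold change -0.30, standard error 0.05, adjusted p = 0.013 in limma). Psmc3, Psmc2, Psmc4 and Psmc6 lay between them, and in each ATPase both 3D samples were below both monolayer samples.

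The other base subunits are the scaffolds Psmd1 and Psmd2 and the ubiquitin receptor Psmd4, and all 3 fell. Psmd1 was at 96.5 and 94.1 TPM in 2D and at 68.6 and 73.8 TPM in 3D culture (log2 fold change -0.46, standard error 0.06, adjusted p = 0.0058 in limma). Psmd4 was at 147 and 145 TPM in 2D and at 116 and 122 TPM in 3D, a fall of 0.33 on the log2 scale (adjusted p = 0.0100 in limma). Psmd2 was intermediate, with a log2 fold change of -0.38.

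In the lid, which removes ubiquitin chains, 7 of 8 subunits fell, and log2 fold changes ran from -0.51 to -0.17. Psmd8 was at 137 and 134 TPM in 2D and at 89.9 and 106 TPM in 3D culture (log2 fold change -0.51, standard error 0.08, adjusted p = 0.010 in limma). Psmd14, the deubiquitinase of the lid, fell by 0.49 (adjusted p = 0.0054 in limma). Psmd6, Psmd7, Psmd13 and Psmd3 fell by 0.31 to 0.25. At the other end were a pair of scaffold subunits. Psmd12, at 136 and 129.8 TPM in 2D and at 122 and 121 TPM in 3D, passed narrowly, with a fall of 0.17 on the log2 scale (adjusted p = 0.048 in limma), and lost the call in 11 of 13 other settings. Psmd11, at 104 and 90.3 TPM in 2D and at 87.2 and 84.8 TPM in 3D culture, did not pass (log2 fold change -0.22, adjusted p = 0.052 in limma). In both genes the 3D samples were still the lowest pair.

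**Figure D3:**
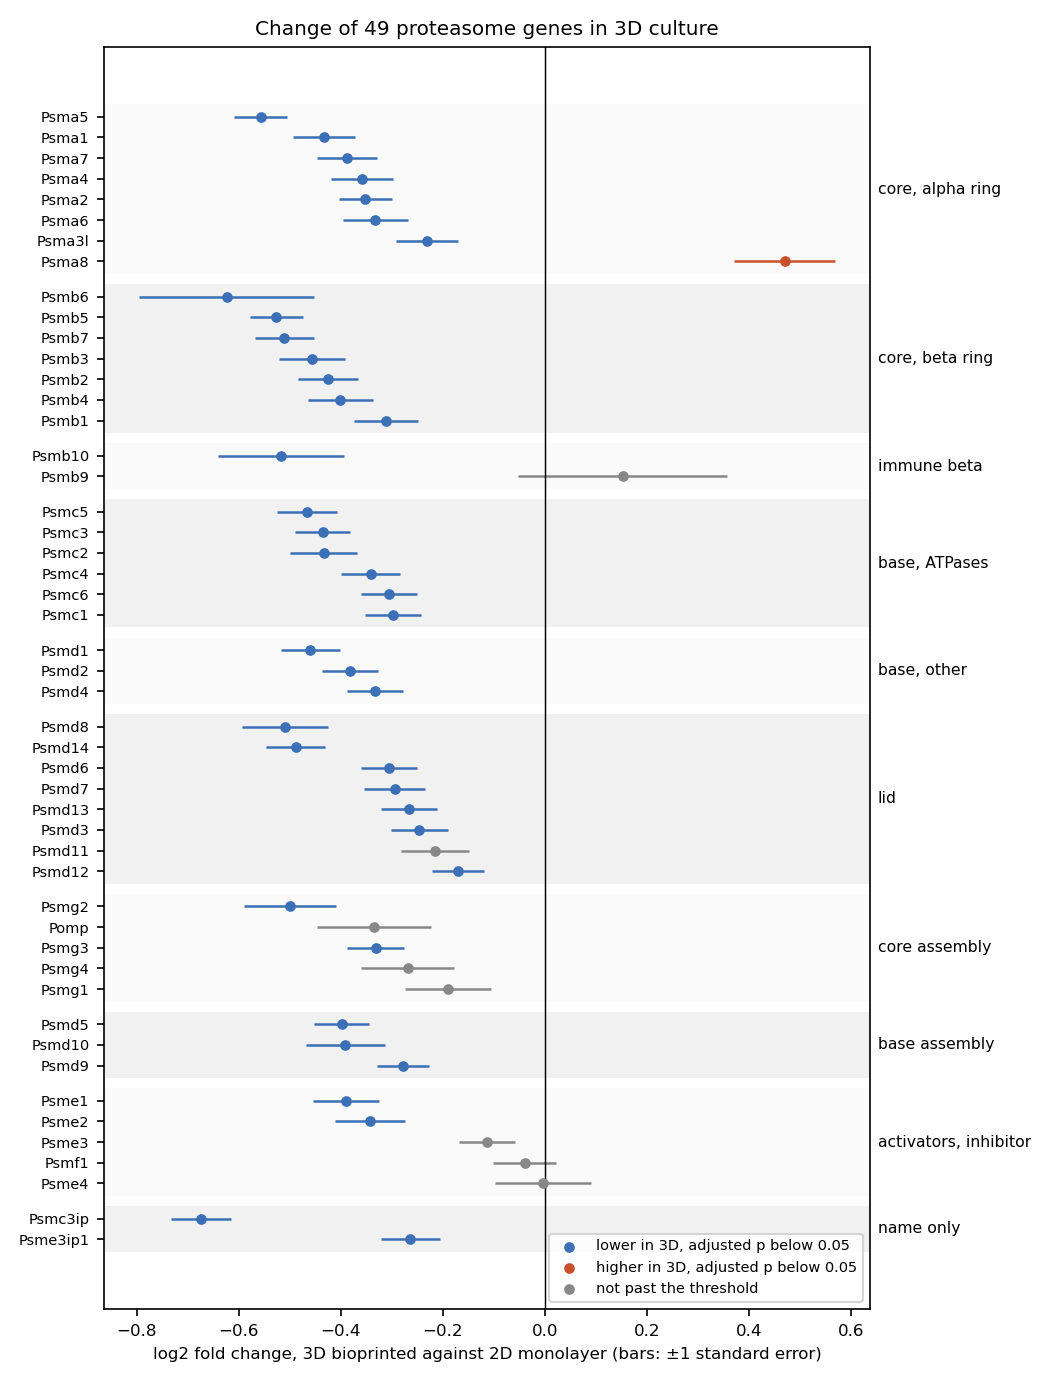
Log2 fold change of 3D against monolayer culture (horizontal axis, points, with bars of 1 standard error) of the 49 proteasome genes by role, on log2(scaled TPM + 1). Blue points fell and orange points rose at an adjusted p below 0.05 in limma, and grey points did not pass. The 14 constitutive core subunits and the 6 ATPases are blue throughout, and the 3 genes nearest 0 are Psme4, Psmf1 and Psme3.

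Of the assembly factors, the chaperones of the base, Psmd5, Psmd9 and Psmd10, all fell. Psmd5 went from 47.9 and 45.6 TPM to 35.8 and 36.9 TPM (log2 fold change -0.40, adjusted p = 0.0067 in limma). Psmd10, also called gankyrin, went from 42.7 and 40.6 TPM to 34.4 and 30.7 TPM (log2 fold change -0.39, adjusted p = 0.015 in limma). Psmd9 went from 87.4 and 82.3 TPM to 71.3 and 72.7 TPM (log2 fold change -0.28, adjusted p = 0.013 in limma). In each of them the 3D pair was below the monolayer pair.

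Of the 5 chaperones of the core, 2 fell. Psmg2, which works in a pair with Psmg1 on the alpha ring, went from 28.6 and 31.7 TPM to 20.8 and 22.5 TPM (log2 fold change -0.50, standard error 0.09, adjusted p = 0.012 in limma). Psmg3, the partner of Psmg4, went from 139.7 and 140.0 TPM to 112 and 117 TPM (log2 fold change -0.33, standard error 0.06, adjusted p = 0.011 in limma). Their partners had smaller values that did not pass. Psmg1 was at 93.7 and 102 TPM in 2D and at 91.1 and 85.6 TPM in 3D culture (log2 fold change -0.19, adjusted p = 0.125 in limma). Psmg4 was at 45.5 and 47.6 TPM in 2D and at 42.3 and 37.1 TPM in 3D culture (log2 fold change -0.27, adjusted p = 0.064 in limma). In all 5 genes of the core chaperones, Pomp included, the 3D pair was below the monolayer pair. The difference between partners was not tested.

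Pomp, the maturation factor that drives the joining of the rings, was among the most abundant genes of the complex. It was at 455 and 541 TPM in 2D and at 412 and 398 TPM in 3D. Both 3D samples were lower, but the monolayer replicates stood far apart, and the log2 fold change of -0.34 (standard error 0.11, 95% interval -0.62 to -0.06) had an adjusted p of 0.063 in limma. Beside the mean core subunit, Pomp stood at 181% and 215% in monolayer and at 215% and 203% in 3D culture, with overlapping groups.

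Of the 5 genes of alternative caps and the inhibitor, 2 fell, with a median log2 fold change of -0.11. These were Psme1 and Psme2, which form the cap that interferon induces. Psme1 was at 37.8 TPM in both monolayer samples and at 30.3 and 28.8 TPM in 3D culture (log2 fold change -0.39, standard error 0.06, adjusted p = 0.010 in limma). Psme2 was at 34.6 and 35.7 TPM in 2D and at 27.4 and 29.3 TPM in 3D culture (log2 fold change -0.34, standard error 0.07, adjusted p = 0.016 in limma). The groups did not overlap in either gene.

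The nuclear caps Psme3 and Psme4 and the inhibitor Psmf1 did not pass. Psme3 was at 99.9 and 90.4 TPM in 2D and at 89.8 and 91.2 TPM in 3D culture (log2 fold change -0.11, 95% interval -0.25 to 0.02, adjusted p = 0.152 in limma). Psme4 was at 47.3 and 37.5 TPM in 2D and at 43.2 and 43.4 TPM in 3D culture, between the monolayer replicates (95% interval -0.24 to 0.23 on the log2 scale, adjusted p = 0.979 in limma). Its most abundant transcript was at 38.8 and 35.1 TPM in 2D and at 33.4 and 34.3 TPM in 3D culture, without overlap. With the most abundant transcript per symbol alone, the log2 fold change of Psme4 was -0.16 (adjusted p = 0.085 in limma). Psmf1 was at 50.8 and 51.1 TPM in 2D and at 51.9 and 50.3 TPM in 3D culture (log2 fold change -0.04, 95% interval -0.19 to 0.11, adjusted p = 0.630 in limma). Summed per symbol, all 3 genes had overlapping groups. Their intervals lie above the median of the complex, -0.34, a point value that includes them. The interval of Psmd12, a gene that fell, also lies above it (-0.30 to -0.04). A difference of the 3 genes from the complex was not tested here.

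A further comparison, chosen after the values were seen, set each gene against the mean log2 level of the 14 constitutive core subunits of its own sample. On this relative scale 69.1% of all genes tested were above the core in 3D culture and 1.38% below. Because the 14 reference subunits all fell in these same data, a gene that did not change lies above them. The regulatory particle, the assembly factors and the caps with the inhibitor each passed above less often than all genes. Of the 17 subunits of the regulatory particle, 2 passed above, Psmd12 by 0.25 and Psmd3 by 0.18 (adjusted p = 0.013 and 0.031 in limma). Of the assembly factors, Psmg1 passed, at 0.23 (adjusted p = 0.026 in limma). Of the caps and the inhibitor, Psme4, Psmf1 and Psme3 passed, at 0.42, 0.38 and 0.31 (adjusted p = 0.022, 0.0037 and 0.012 in limma), and so did Psma8, at 0.89 (adjusted p = 0.0023 in limma). The value of Psme4 sums its transcripts, and the most abundant of them was lower in both 3D samples. Psmf1 stood at 1.45% of the summed core TPM in both monolayer samples and at 1.94% and 1.83% in 3D culture, without overlap. The exact permutation test of this ratio gave p = 0.333, two-sided, the smallest that 2 samples against 2 allow. None of the subunits, assembly factors or caps passed below the core, and for those that did not pass the test does not show that they moved alike.

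**Figure D4:**
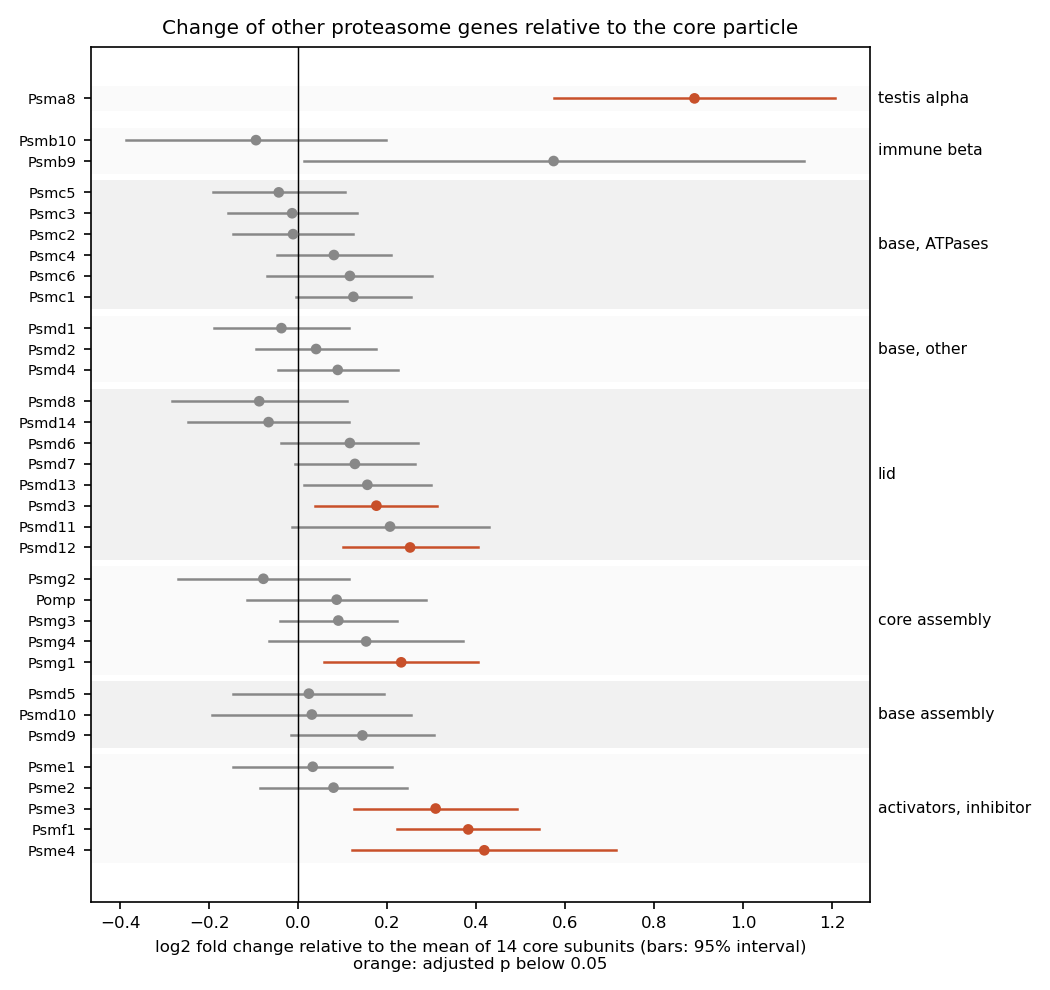
Log2 fold change of 3D against monolayer culture relative to the mean of 14 core subunits (horizontal axis, points, with bars of the 95% interval) for the other proteasome genes, with orange for an adjusted p below 0.05 in limma and grey otherwise. The regulatory particle has a median of 0.09, and Psme3, Psmf1, Psme4 and Psma8 lie furthest right of those that passed.

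A pair of genes match the symbol rule but not the complex. Psmc3ip, a factor of homologous recombination in meiosis, was at 34.2 and 33.4 TPM in 2D and at 21.7 and 21.2 TPM in 3D culture. Its log2 fold change, -0.67 (standard error 0.06, adjusted p = 0.0039 in limma), was the lowest of the 49 genes, and it also passed below the mean core subunit, at -0.25 (adjusted p = 0.023 in limma). Psme3ip1, a partner of the Psme3 cap, fell by 0.26 (adjusted p = 0.020 in limma). Without them, 38 of 47 genes fell, with the same median. Many proteasome genes have processed copies, and 20 of the 49 had at least 1 copy in the RefSeq table. Of these 20, 17 fell (median log2 fold change -0.37), as did 23 of the 29 without one (median -0.33).

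Beside the complex stand the other genes of the pathway. Of 45 genes listed as proteasome-bound factors, transcriptional regulators, ubiquitin genes, segregase parts, peptidases and deubiquitinases, 44 were found and tested, of which 18 fell, 4 rose and 22 did not pass in limma. The background for these lists is again 19.5% lower and 18.5% higher over all genes tested. The median gene of the lists had a mean of 56.6 TPM, and more abundant genes fell more often. Among genes with a mean of at least 10 TPM, 25.5% fell and 17.5% rose. Among those with at least 100 TPM, 40% fell and 11.7% rose. An excess of falls in these lists over genes of like abundance was not tested. The number that fell was 12 and 11 without monolayer replicate 1 or 2 and 0 without either 3D replicate, where 12 and 14 were lower at an unadjusted p below 0.05, a threshold that 16.1% and 18.1% of all genes passed. Of the 15 proteasome-bound genes, 6 fell and 1 rose. Adrm1 and Sem1 are subunits of the regulatory particle outside the symbol rule. The ubiquitin receptor Adrm1 was at 132 and 131 TPM in 2D and at 109 and 113 TPM in 3D (log2 fold change -0.28, adjusted p = 0.015 in limma). Sem1, a small lid subunit, was at 215 and 220.5 TPM in 2D and at 182 and 168 TPM in 3D (log2 fold change -0.36, adjusted p = 0.017 in limma). Both fell without overlap, as did the shuttle factor Ubqln4 (log2 fold change -0.41, adjusted p = 0.0088 in limma). Ubqln2, another shuttle factor, rose by 0.31 (adjusted p = 0.022 in limma) and is named after its value was seen.

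Of the 7 genes of transcriptional control, 0 fell and 2 rose in limma, against the same background, and 1, Nfe2l2, was lower at an unadjusted p below 0.05. Nfe2l1, the factor that raises proteasome genes when the proteasome is inhibited, was at 66.2 and 65.4 TPM in 2D and at 67.9 and 68.8 TPM in 3D culture (log2 fold change 0.01, 95% interval -0.12 to 0.15, adjusted p = 0.887 in limma). Ddi2, the protease that activates it, rose from 9.38 and 8.11 TPM to 12.0 and 11.8 TPM (log2 fold change 0.37, adjusted p = 0.019 in limma), a call it lost in 5 of 13 other settings. Mafk, a small partner of NRF factors, rose from 23.2 and 21.6 TPM to 34.5 and 31.7 TPM (log2 fold change 0.50, adjusted p = 0.0071 in limma). Nfe2l2, the NRF factor of the oxidative stress response, was at 21.4 and 20.8 TPM in 2D and at 18.8 and 19.7 TPM in 3D culture and did not pass (log2 fold change -0.17, adjusted p = 0.075 in limma). These are levels of RNA, and the activity of Nfe2l1 and Nfe2l2 is set largely on the protein.

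Genes that act before the proteasome supply ubiquitin and deliver substrates. Of 6 ubiquitin genes and activating enzymes, 3 fell. Rps27a, which encodes ubiquitin fused to a ribosomal protein, went from 3487 and 3505 TPM to 3038 and 2816 TPM (log2 fold change -0.30, adjusted p = 0.038 in limma). Both 3D samples of Rps27a were lower, and its call was lost in 6 of 13 other settings. Of the 5 segregase genes, Vcp, the ATPase that extracts substrates from membranes and complexes, went from 437 and 403 TPM to 337 and 351 TPM (log2 fold change -0.33, adjusted p = 0.010 in limma). Its cofactor Faf1 fell by 0.29 (adjusted p = 0.014 in limma). Faf2 did not pass (log2 fold change 0.08, adjusted p = 0.337 in limma).

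Of the 6 peptidases that trim proteasome products, 4 fell, with Thop1 at -0.49, Blmh at -0.42 and Npepps at -0.25 on the log2 scale (adjusted p = 0.0056, 0.0089 and 0.031 in limma). Of the 5 deubiquitinases listed, 3 fell and 1 rose. Uchl1, abundant in neurons and endocrine cells, went from 979.7 and 1027 TPM to 729 and 774 TPM (log2 fold change -0.46, adjusted p = 0.0094 in limma). Uchl3 fell by 0.47 (adjusted p = 0.0075 in limma). Usp7 rose by 0.23 (adjusted p = 0.041 in limma). Usp7 lost its call in 5 and Npepps in 6 of 13 other settings. In each gene named here as risen or fallen the groups did not overlap.

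**Figure D5:**
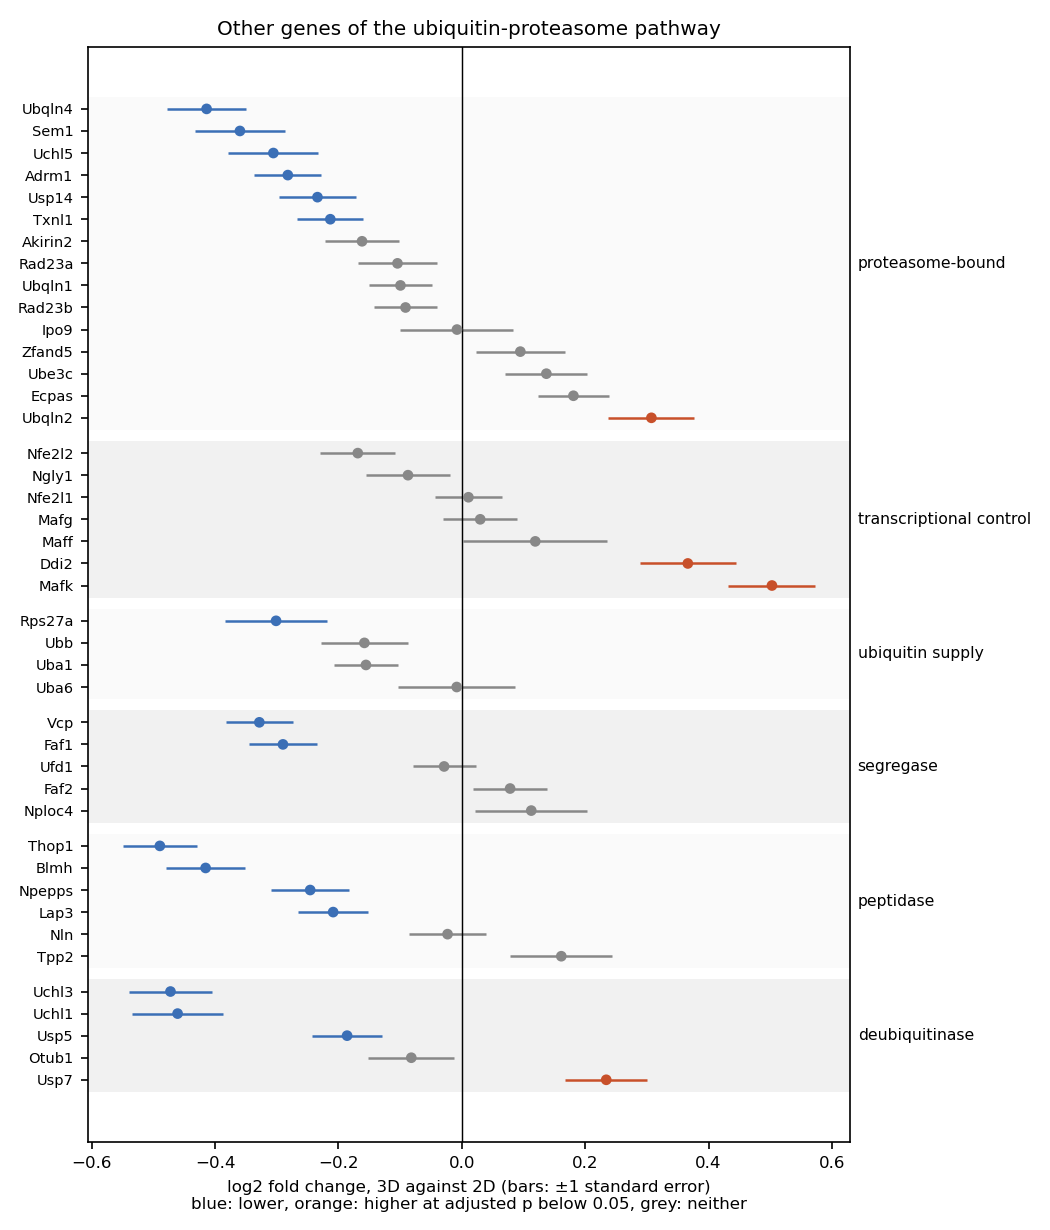
Log2 fold change of 3D against monolayer culture (horizontal axis, points, with bars of 1 standard error) of 42 other genes of the ubiquitin-proteasome pathway by role, with blue for genes that fell, orange for genes that rose and grey for neither. In the row of transcriptional control Nfe2l1 sits at 0.01, with Ddi2 and Mafk to the right.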

How the data were processed

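Polyadenylated RNA of 4 samples was sequenced as stranded single-end libraries. The authors quantified transcripts with Salmon 1.2, after read checks with FastQC 0.11.8. The reference is given as rn4 with human insulin added, although some gene names in the values are of a later rat assembly. The authors deposited TPM with decimal commas, which an automated unit check reads as text. TPM keep no depth, so no counting interval is given and the count test of the study was not repeated.

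The 31201 transcripts were summed to gene symbols, and a mean of at least 1 TPM was required. Samples were scaled by unweighted TMM (trimming 30% of M and 5% of A on either side, with factors of 0.96 to 1.02). The fit used R 4.3.3 and limma 3.58.1, with moderated variances that follow expression, on log2(scaled TPM + 1), with Benjamini-Hochberg adjustment over the 11960 genes and a threshold of 0.05. Fold changes on this scale understate those of low genes. Printed TPM are unscaled. The steps were tested on simulated data in which few genes changed, in both directions and by more than the median proteasome gene. That test does not cover changes as broad or as small as those reported.

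The genes and lists were chosen with earlier results of these data known. Values per sample are given for catalytic, immune, assembly and cap genes, for the lowest and highest log2 fold change of each other role and for genes not past the threshold. Other lists are named by their 3 smallest p and by Nfe2l1, Nfe2l2, Adrm1 and Sem1. Paaf1 is not analysed here, and a few list genes are not reported here. The p-values rest on the spread between 2 cultures per group, moderated in limma by the spread pooled over genes. RefSeq tables (GRCr8) served for names and promoters alone.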

Additional observations from a re-analysis of the deposited data

How the results depend on the processing

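Of 13 other settings of the processing, 12 tested all 49 proteasome genes. In these 12, 45 genes had a negative log2 fold change throughout, and 0 were called lower in every one, since no call survived without 3D replicate 1. The number of proteasome genes that fell was 37 to 41 in the settings with all samples, against 40 as reported, and 0 to 40 with 1 sample left out. The lone sample of a group is then assumed to vary like the other group, and calls over all genes also dropped, to 24 lower and 84 higher without 3D replicate 1 and to 245 and 387 without 3D replicate 2. The median log2 fold change of -0.34 became -0.30 without scaling, -0.38 without a filter and -0.31 with a minimum mean of 10 TPM, where 46 genes were tested, and it ran from -0.39 to -0.31 with 1 sample left out. The 1 gene called higher became 0 with that minimum, as Psma8 was not tested, and 0 to 1 with 1 sample left out. Of the other pathway genes, 18 fell, or 0 to 12 with 1 sample left out, and 4 rose, or 1 without a filter and 0 to 5 with 1 sample left out.

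Values near 0 changed sign. Psme4 gave 0.039 without scaling, 0.0019 with median of ratios scaling and 0.034 with the minimum of 10 TPM, and Psmf1 gave 0.0035 without scaling. Nfe2l1 gave -0.025 without a filter, and Faf2 gave -0.043 with the most abundant transcript alone. With 1 sample left out, Psme4 ran from -0.132 to 0.124, Psmf1 from -0.080 to 0.000545, Psmb9 from -0.081 to 0.384 and Nfe2l1 from -0.017 to 0.038. None of these values passed the threshold in limma, and the cause was not tested.

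Samples were not paired by replicate number, since the deviations of samples with the same number had a correlation of -0.0060 over genes. With the replicate number as a block, 41 proteasome genes fell and 1 rose, with a median log2 fold change of -0.34. In that setting 16 other pathway genes fell and 4 rose, and over all genes 19.8% fell and 20.4% rose. Pomp and Psmd11 then passed (adjusted p = 0.040 and 0.039 in limma) and Psmd12 and Rps27a did not (adjusted p = 0.079 and 0.098 in limma). Scaling moved the median of all genes by less than 0.1 on the log2 scale. Summing Psmb6 with its copy and the comparison relative to the core were added after the data were seen.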
